A study of Mus musculus with 8 samples.

Results

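The G1 cyclins and their kinases are the 9 genes Ccnd1, Ccnd2, Ccnd3, Cdk4, Cdk6, Ccne1, Ccne2, Cdk2 and Ccng2. They were read on the Mouse Genome 430 2.0 array by 26 probe sets whose annotation names 1 of these genes, out of 45101 probe sets and 18193 named genes. A probe set is a group of short oligonucleotides against part of a transcript, and several can read a gene. Each gene is represented here by its lead probe set, the one with the highest mean log2 signal over all arrays.

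D-type cyclins bind Cdk4 or Cdk6 early in G1, in response to mitogens, and the active kinases phosphorylate the retinoblastoma protein. This releases E2F factors, which drive cyclin E and the DNA replication genes. Cyclin E then activates Cdk2 at the entry into S phase. Cyclin G2 is an atypical cyclin that is associated with cell cycle arrest and is induced by FoxO factors. Embryonic stem cells are known for a short G1 phase with high cyclin E, while hematopoietic stem cells are mostly quiescent and rely on Cdk6 to leave quiescence.

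The series holds 8 arrays in 4 groups of 2, with and without the zinc finger transcription factor Zfx. ESC Zfx-flox and ESC Zfx-null are cultured mouse embryonic stem cell clones with a loxP-flanked or a deleted Zfx gene, grown on gelatin without feeders in serum replacement and LIF, the cytokine that maintains them. HSC Zfx-flox and HSC Zfx-cko are sorted marrow cells (Lin- Sca-1+ c-Kit+), a population rich in stem cells and early progenitors, from Zfx flox/y mice without Cre and from Mx1-Cre+ Zfx flox/y littermates. Mx1-Cre is driven by an interferon-responsive promoter, and both groups received pI·C, with marrow pooled from 4 to 6 mice and taken 4 days later. Cre was present in the HSC Zfx-cko group and in no other HSC group. Neither the age of the mice nor the number of ESC clones behind each group is stated in the sources used here. Samples were hybridized in duplicate, so the spread between the arrays of a group may be technical, and p-values measure only that spread.

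Array quality was described by signal levels and by Gapdh control probe sets. The median signal was 38.4 to 66.5 per array, and 69.4% to 78.9% of probe sets read more than the pseudocount of 14.2 that was added to every value. RNA of HSC had 2 rounds of amplification and that of ESC 1. The log2 ratio of 5′ to 3′ Gapdh control signal was between 0.38 and 0.44 on the ESC arrays; among HSC arrays it was −4.18 and −4.25 for Zfx-flox, −4.68 and −4.39 for Zfx-cko. Levels of ESC and HSC were therefore not tested against each other, since cell type and amplification cannot be told apart. Within HSC, both Zfx-cko arrays had a lower 5′ to 3′ ratio than both Zfx-flox arrays, and the part of this in the HSC changes was not tested. Zfx probe set 1422249_s_at, which also reads a pseudogene, gave 285 and 298 in ESC Zfx-flox against 1.32 and 0.878 in Zfx-null. It lay below the pseudocount on all 4 HSC arrays and checks nothing there. The lead Zfx probe set 1425972_a_at rose in both cell types, by 0.79 ± 0.11 in ESC and 0.72 ± 0.11 in HSC (log2 change ± SE). Besides it, 4 Zfx probe sets were called higher in ESC (1.33 to 1.65), and in HSC none of the other 4 tested passed (−0.49 to 0.10). The sources used here do not say if the lead's probes fall within the deleted exons.

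Marker genes moved with the groups. In HSC, 6 of 7 tested stem and multipotent progenitor markers rose in Zfx-cko, and their summed signal went from 4240 and 4438 to 13487 and 13680.0. Of 6 tested granulocyte and monocyte markers 3 rose, with sums of 13679 to 13741 in Zfx-flox and 17914 to 18457 in Zfx-cko. Of 6 tested erythroid and megakaryocyte markers 3 rose and 3 fell, with sums of 5096 to 5107 in Zfx-flox and 4874 to 4895 in Zfx-cko. The erythroid regulators Klf1, Gata1 and Epor were those that fell, from means of 1924, 1746 and 289 to 324, 549 and 107. The megakaryocyte and platelet genes Pf4, Itga2b and Gp9 were those that rose, from 930.3, 175 and 16.6 to 3389, 349.7 and 144. Mast cell markers had 3 of 5 higher (sums of 2692 to 2819.8 and 5142 to 5461). Of 3 tested B, T and NK cell markers 2 rose, Il7r from 75.3 to 164 and Rag1 from 2.67 to 62.2, with list sums of 143 to 186 and 284 to 343. Rag1 and Gp9 lay under the HSC filter level of 26.7 in Zfx-flox and were tested only because Zfx-cko raised their mean. A fall of either could not have been called, so their rises carry no weight in these counts. Cd3e and Cd3g of the B, T and NK list lay below the pseudocount on all 4 arrays. In ESC, 4 of 8 pluripotency markers fell in Zfx-null (sums of 21488 to 21998 and 13174 to 13629), and 6 of 8 fibroblast and stroma markers rose (sums of 17184 to 17514 and 29789 to 32518). Of 6 neuroectoderm and epiblast markers 2 rose and 2 fell in ESC, and of 5 tested endoderm markers 1 rose. In HSC, 3 of 6 tested fibroblast and stroma markers and 2 of 5 tested endoderm markers rose. Of all genes, 15.4% were called higher and 14.4% lower in ESC, and 22.6% and 19.7% in HSC. Fewer cells of a type and less RNA per cell cannot be told apart in these bulk samples, and the part of such shifts in the results on the cyclins was not tested.

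Promoters of 6 of the 9 genes were in the RefSeq table (GRCm38.p6), namely those of Ccnd3, Ccne1, Cdk2, Cdk4, Cdk6 and Ccng2. The 250 bases before the start site are shown for Ccne1, the gene with the largest fall, for Cdk6 and Ccng2, which rose in both cell types, and for Cdk4, whose lead probe set passed in neither. They lie at chr7:38107491-38107740 (Ccne1, minus strand), chr5:3343643-3343892 (Cdk6, plus strand), chr5:93267323-93267572 (Ccng2, plus strand) and chr10:127063285-127063534 (Cdk4, plus strand). Each is printed 5′ to 3′ on the gene's strand, and capitals mark every match to a motif searched.
Ccne1: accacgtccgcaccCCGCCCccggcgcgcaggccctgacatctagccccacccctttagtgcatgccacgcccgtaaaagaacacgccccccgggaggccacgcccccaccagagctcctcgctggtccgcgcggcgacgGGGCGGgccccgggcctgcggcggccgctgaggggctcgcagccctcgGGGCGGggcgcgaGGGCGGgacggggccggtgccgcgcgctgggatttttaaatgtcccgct
Cdk6: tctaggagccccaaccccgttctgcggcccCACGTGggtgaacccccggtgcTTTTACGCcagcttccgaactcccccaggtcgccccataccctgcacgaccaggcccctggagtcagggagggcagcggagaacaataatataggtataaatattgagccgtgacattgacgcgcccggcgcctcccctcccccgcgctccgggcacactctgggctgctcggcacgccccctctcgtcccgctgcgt
Ccng2: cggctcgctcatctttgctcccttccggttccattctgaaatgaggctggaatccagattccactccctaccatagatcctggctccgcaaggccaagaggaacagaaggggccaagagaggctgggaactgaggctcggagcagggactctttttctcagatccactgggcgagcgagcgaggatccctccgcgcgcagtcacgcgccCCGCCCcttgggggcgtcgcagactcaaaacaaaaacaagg
Cdk4: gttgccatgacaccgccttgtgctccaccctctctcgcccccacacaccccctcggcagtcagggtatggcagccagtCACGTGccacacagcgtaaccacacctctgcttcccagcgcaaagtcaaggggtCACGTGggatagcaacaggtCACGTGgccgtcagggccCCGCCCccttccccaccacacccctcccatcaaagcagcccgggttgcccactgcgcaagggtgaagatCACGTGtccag

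5 motifs were searched on both strands, and no matches in these windows overlapped. They were the E2F core TTTNNCGC (in 4.28% of 32851 promoter windows of this length), the E-box CACGTG bound by Myc family proteins (6.02%), the FoxO core TGTTTAC (3.17%), the Zfx core AGGCCT (8.7%) and the GC box GGGCGG (32.7%). The Cdk4 window held 4 E-boxes, at 172, 118, 98 and 11 bases before the start, and 1 GC box. The Cdk6 window held an E-box at 220 and an E2F core at 198 bases before the start. The Ccne1 window held 4 GC boxes and the Ccng2 window 1, and neither held any of the other motifs. Of the windows not shown, Cdk2 held an E2F core at 140 bases before the start and 5 GC boxes, and the more upstream of the 2 Ccnd3 windows held a FoxO core at 243 bases. The Zfx core was in 0 of the 7 windows. A match describes the sequence and is no evidence of binding.

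In Zfx-null ESC, 4 of the 9 genes rose (Ccnd1, Ccnd2, Cdk6 and Ccng2), 1 fell (Ccne1) and 4 did not pass. Of all 12677 genes tested, 15.4% were called higher and 14.4% lower (29.8% in either direction). In Zfx-cko HSC, Ccnd1, Ccnd2, Cdk6 and Ccng2 rose too, Ccne1 and Ccne2 fell, and 3 did not pass. There 22.6% of 12535 genes were called higher and 19.7% lower (42.3% in all). At the level of probe sets, 12 rose, 2 fell and 3 were too dim to be tested among the 26 in ESC, where 25.1% of tested probe sets were called. In HSC 10 rose, 5 fell and 1 was not tested, where 38.0% of tested probe sets were called. A call is an adjusted p under 0.05 in limma (Benjamini-Hochberg over all 27022 probe sets tested in a cell type). Changes are on the scale log2(signal + 14.2), which understates those of dim probe sets.

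**Figure D1:**
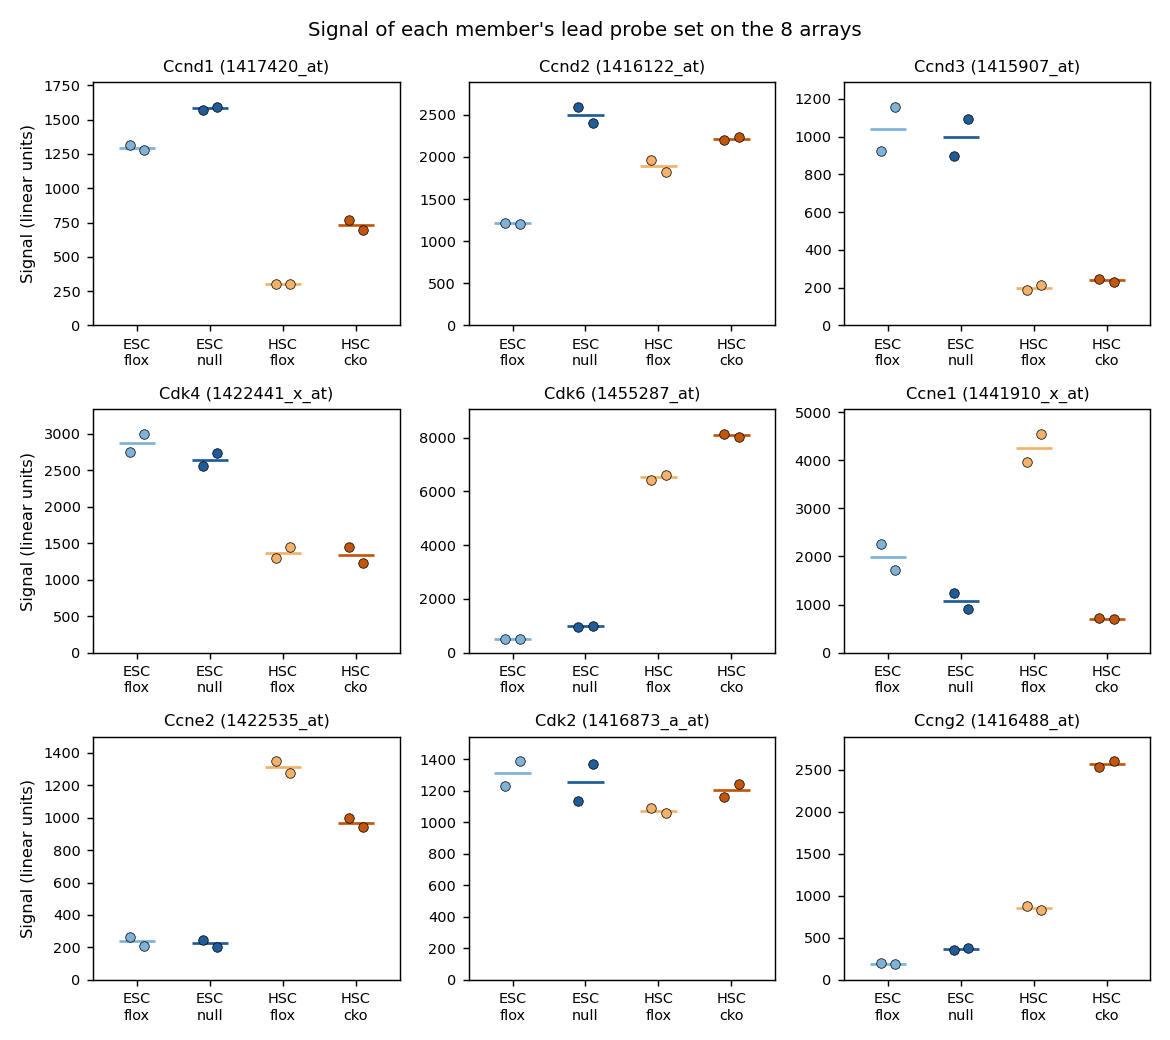
Signal of each gene's lead probe set (y axis, linear units, from 0) in the 4 groups (x axis); points are single arrays and bars the mean of the 2 arrays of a group. Ccne1 falls from 3965 and 4552 in HSC Zfx-flox to 711 and 708 in Zfx-cko, whereas Ccng2 rises from 880 and 826 to 2537 and 2606.

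Ccnd1 encodes cyclin D1, the D cyclin most directly tied to mitogen signals. Its lead probe set gave 303.6 and 300.8 in HSC Zfx-flox against 769.7 and 694.6 in Zfx-cko. It gave 1313 and 1277 in ESC Zfx-flox against 1573 and 1595 in Zfx-null. The 4 groups did not overlap, in the order ESC Zfx-null, ESC Zfx-flox, HSC Zfx-cko, HSC Zfx-flox. Ccnd1 rose by 1.24 ± 0.074 in HSC (log2 change ± SE, adjusted p = 4.64e-06), a 2.42-fold ratio of mean signals, and by 0.29 ± 0.073 in ESC (adjusted p = 0.0198), a 1.22-fold ratio. The ESC call was lost without any single ESC array (adjusted p of 0.056 and 0.0835 without Zfx-flox replicates 1 and 2, 0.0623 and 0.0751 without Zfx-null replicates 1 and 2), and across all alternatives the adjusted p ran from 0.0109 to 0.0835. The other probe sets rose in HSC as well, 1448698_at by 1.30 ± 0.14 and 1417419_at by 0.66 ± 0.12. In ESC 1448698_at passed at 0.48 ± 0.14 (adjusted p = 0.0401), and 1417419_at did not, at 0.30 ± 0.12 (adjusted p = 0.089).

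Ccnd2 encodes cyclin D2, which is abundant in blood progenitors. Its lead probe set gave 1213 and 1209.6 in ESC Zfx-flox against 2597 and 2408 in Zfx-null. In HSC it gave 1961 and 1821 in Zfx-flox against 2197 and 2232 in Zfx-cko. No groups overlapped on this probe set. The order of ESC and HSC levels depended on the probe set, since 4 of 7 (1455956_x_at, 1448229_s_at, 1416123_at and 1416124_at) were highest in HSC Zfx-cko and the lead in ESC Zfx-null. Cell type and amplification cannot be told apart in it. It rose by 1.04 ± 0.065 in ESC (adjusted p = 2.68e-05), a 2.07-fold ratio of means, and by 0.23 ± 0.065 in HSC (adjusted p = 0.022), a 1.17-fold ratio. The HSC call was lost without Zfx-cko replicate 1 (adjusted p = 0.078), Zfx-cko replicate 2 (0.105) or Zfx-flox replicate 2 (0.151). With arrays centred on their median, the HSC change was 0.13 (adjusted p = 0.346). The gene has 7 probe sets. All 6 tested in ESC rose, by 0.88 to 1.30, and 4 of 7 rose in HSC, the largest by 0.51 (1434745_at and 1430127_a_at). The other 3 had HSC changes of 0.08 to 0.34. In ESC, the dim probe set 1416124_at was at 12.4 and 2.35 in Zfx-flox against 23.6 and 23.4 in Zfx-null and was not tested.

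Ccnd3 encodes cyclin D3. The lead probe set gave 925 and 1159 in ESC Zfx-flox against 897 and 1096 in Zfx-null, so that these groups overlapped. It gave 186 and 216 in HSC Zfx-flox against 246 and 232 in Zfx-cko, where the arrays did not overlap but the change did not pass. The log2 change was −0.06 in ESC (95% interval −0.37 to 0.25) and 0.24 in HSC (−0.07 to 0.55). Of the other probe sets, 1444323_at had changes of 0.40 in ESC and −0.48 in HSC (adjusted p = 0.227 and 0.117), and 1438805_at, not tested in ESC, 0.26 in HSC (adjusted p = 0.585). The probe sets of Ccnd3 thus differed in sign within each comparison, and none passed.

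Cdk4 and Cdk6 are the 2 kinases of the D cyclins. For Cdk4 the lead probe set gave 2742 and 2996 in ESC Zfx-flox against 2550 and 2732 in Zfx-null. It gave 1293 and 1442 in HSC Zfx-flox against 1442 and 1223 in Zfx-cko. Neither pair of groups passed, with log2 changes of −0.12 in ESC (95% interval −0.33 to 0.09) and −0.04 in HSC (−0.25 to 0.17). The other 2 Cdk4 probe sets did fall in HSC. On 1422439_a_at, the signal was 1446 and 1487 in Zfx-flox against 1245 and 1244 in Zfx-cko (−0.23 ± 0.056, adjusted p = 0.00924). On 1422440_at it was 468 and 448 against 317 and 308 (−0.53 ± 0.076, adjusted p = 0.000567). In ESC neither passed, at −0.09 and −0.11. The probe sets of Cdk4 therefore disagreed on whether the gene fell in HSC.

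Cdk6 had the largest gap between the cell types on a lead probe set, a 13.0-fold higher mean in HSC Zfx-flox than in ESC Zfx-flox, a description in which cell type and amplification cannot be told apart. The lead probe set gave 501 and 502.5 in ESC Zfx-flox against 959 and 998 in Zfx-null. In HSC it gave 6444 and 6626 in Zfx-flox against 8145 and 8033 in Zfx-cko, and no groups overlapped. Cdk6 rose by 0.94 ± 0.055 in ESC (adjusted p = 2.2e-05), a 1.95-fold ratio of means, and by 0.31 ± 0.055 in HSC (adjusted p = 0.0021), a 1.24-fold ratio. Centred on the array median, the HSC change was 0.21 (adjusted p = 0.116). The probe set 1435338_at rose by 1.08 ± 0.060 in ESC and by 0.59 ± 0.060 in HSC (adjusted p = 8.75e-05). The third, 1460291_at, rose by 1.12 ± 0.23 in ESC and did not pass in HSC (0.30 ± 0.23, adjusted p = 0.35). It read 22.6 in HSC Zfx-flox on average against 86.8 in ESC Zfx-flox, the opposite order to the other 2 probe sets.

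Ccne1 encodes cyclin E1, the Cdk2 partner at the G1/S boundary, and was the only gene of the 9 called lower in both comparisons. The lead probe set gave 3965 and 4552 in HSC Zfx-flox against 711 and 708 in Zfx-cko. It gave 2258 and 1725 in ESC Zfx-flox against 1240.3 and 904 in Zfx-null. The order of groups was HSC Zfx-flox, ESC Zfx-flox, ESC Zfx-null and HSC Zfx-cko, with no overlap. Ccne1 fell by 2.56 ± 0.16 in HSC (adjusted p = 5.47e-06), a 6.00-fold ratio of means, and by 0.89 ± 0.16 in ESC (adjusted p = 0.00375), a 1.86-fold ratio. The second probe set, 1416492_at, gave 870 and 819 in HSC Zfx-flox against 164 and 171 in Zfx-cko, and 1835 and 1837 in ESC Zfx-flox against 1143 and 1113 in Zfx-null. It fell by 2.24 ± 0.071 in HSC (adjusted p = 4.59e-07) and by 0.70 ± 0.070 in ESC (adjusted p = 0.000233). Both probe sets thus show the fall, while they order HSC Zfx-flox and ESC Zfx-flox in opposite ways, with a ratio of 2.14 on the lead and 0.46 on 1416492_at.

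Ccne2 encodes cyclin E2, the close relative of cyclin E1, and was read by a single probe set. It gave 1351 and 1277 in HSC Zfx-flox against 996 and 943 in Zfx-cko, without overlap. In ESC it gave 263 and 211 in Zfx-flox against 246 and 203 in Zfx-null, which overlapped. The fall of 0.43 ± 0.12 in HSC passed (adjusted p = 0.0207), a 1.36-fold ratio of means. The call was lost without any single HSC array, at an adjusted p of 0.0637 and 0.109 without Zfx-cko replicates 1 and 2 and of 0.111 and 0.0636 without Zfx-flox replicates 1 and 2. The ESC change was −0.07 (95% interval −0.35 to 0.21, adjusted p = 0.718).

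Cdk2, the kinase that cyclin E activates, had the narrowest range of the 9 lead probe sets over the arrays. It gave 1232 and 1391 in ESC Zfx-flox, 1138 and 1370.0 in Zfx-null, 1093 and 1058 in HSC Zfx-flox against 1163 and 1245 in Zfx-cko. The ESC groups overlapped, and the HSC groups did not. Neither change passed, at −0.07 in ESC (95% interval −0.29 to 0.15) and 0.16 in HSC (−0.06 to 0.38). The second Cdk2 probe set lay below the pseudocount on every array, at 0.191 to 5.88, and was not tested.

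Ccng2, cyclin G2, stands apart from the others in function, since it is linked to arrest and not to entry into S phase. Its lead probe set gave 880 and 826 in HSC Zfx-flox against 2537 and 2606 in Zfx-cko. It gave 195 and 193 in ESC Zfx-flox against 351 and 384 in Zfx-null, and no groups overlapped. Ccng2 rose by 1.58 ± 0.079 in HSC (adjusted p = 2.25e-06), a 3.01-fold ratio of means, and by 0.87 ± 0.078 in ESC (adjusted p = 0.000126), a 1.90-fold ratio. The second probe set, 1448364_at, passed in neither. It gave 182 and 158 in ESC Zfx-flox against 247 and 251 in Zfx-null (0.51 ± 0.17, adjusted p = 0.0572). In HSC it gave 42.0 and 32.0 in Zfx-flox against 34.2 and 32.8 in Zfx-cko (−0.10 ± 0.17, adjusted p = 0.708), and thus did not show the rise of the lead probe set. The mean of both probe sets gave an HSC change of 0.74 (adjusted p = 0.000432).

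**Figure D2:**
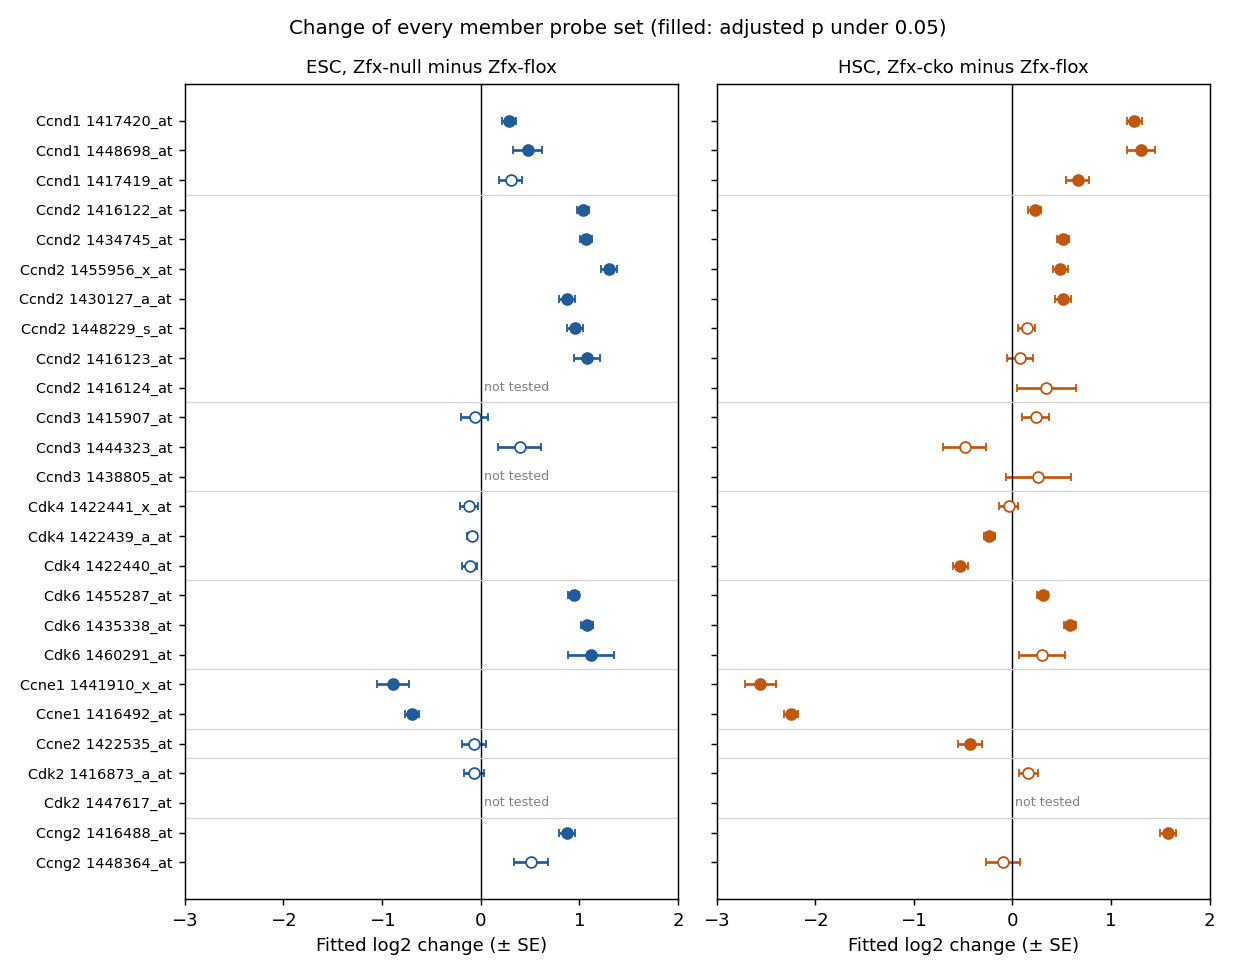
Fitted log2 change (x axis, ± SE) of all 26 probe sets, grouped by gene (y axis), in ESC on the left and HSC on the right; filled points passed an adjusted p of 0.05. Every tested Ccnd2 and Cdk6 probe set was called higher in ESC and both Ccne1 probe sets were called lower in both cell types, whereas the probe sets of Cdk4 and Ccng2 disagree in HSC.

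The difference between the HSC and the ESC change was tested directly, in the same fit, and 5 of the 9 genes passed. This compares changes from separate arrays, 4 per cell type. The cell types also differed in amplification rounds, in culture or pI·C treatment and in how Zfx was deleted. A difference between the changes cannot be told apart from these. Of 11181 genes tested in both cell types 35.1% were called, 17.5% with a higher and 17.6% with a lower change in HSC. Ccne1 fell further in HSC, by −1.67 ± 0.22 (adjusted p = 0.000616), and 1416492_at gave −1.54 ± 0.10. On the lead probe sets, Ccnd1 and Ccng2 rose further in HSC, by 0.95 ± 0.10 (adjusted p = 0.000229) and 0.70 ± 0.11 (adjusted p = 0.00153). Ccnd2 and Cdk6 rose further in ESC, with differences of −0.81 ± 0.092 (adjusted p = 0.000274) and −0.64 ± 0.079 (adjusted p = 0.00042). For Ccnd1, 1448698_at passed too (0.82 ± 0.20, adjusted p = 0.0132) and 1417419_at did not (0.36 ± 0.16, adjusted p = 0.128). For Cdk6, 1435338_at passed (−0.49 ± 0.086, adjusted p = 0.00252) and 1460291_at did not (−0.82 ± 0.33, adjusted p = 0.0889). The Ccng2 difference did not extend to 1448364_at, which was dim in HSC (−0.61 ± 0.24, adjusted p = 0.0852). With the mean of both probe sets the Ccng2 difference was 0.05 (adjusted p = 0.821). Ccnd3, Ccne2, Cdk2 and Cdk4 did not pass, at 0.30 (95% interval −0.13 to 0.73), −0.36 (−0.75 to 0.03), 0.23 (−0.09 to 0.54) and 0.08 (−0.22 to 0.38). The Cdk4 probe set 1422440_at did pass, with a lower change in HSC (−0.42 ± 0.11, adjusted p = 0.0157). Centring arrays on their median shifted the median difference of all genes from 0.03 to −0.09 and the split of calls from 1960 higher and 1967 lower (49.9% higher) to 1233 and 2111 (36.9% higher). The 5 called differences of lead probe sets held their direction and call under it.

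**Figure D3:**
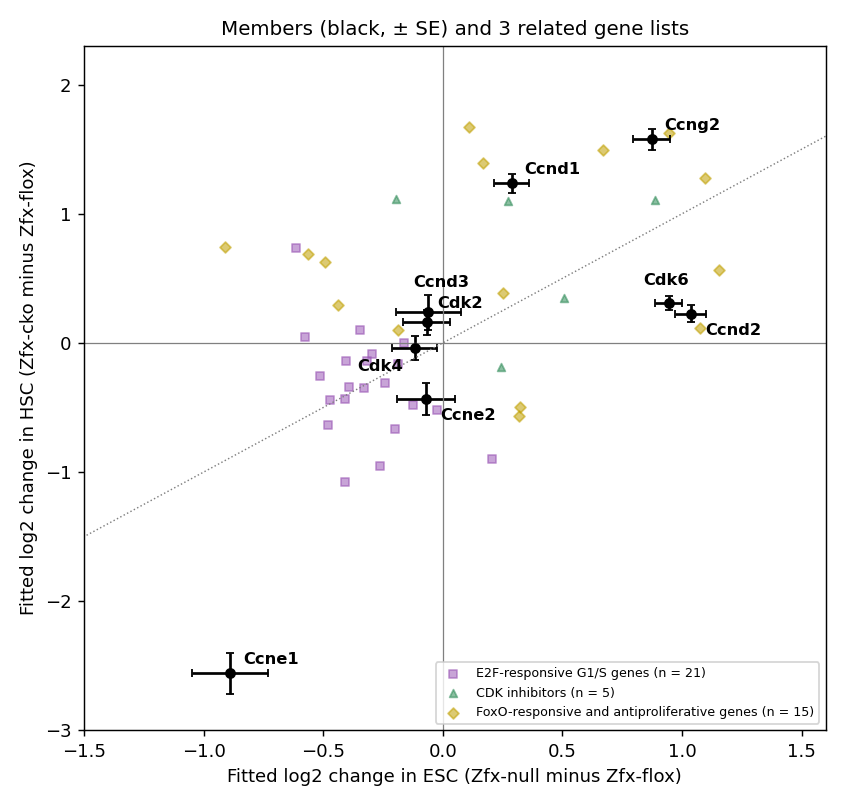
Fitted log2 change in ESC (x axis) against that in HSC (y axis) for the 9 genes (black, ± SE) and for genes of 3 related lists (colours); the dotted line marks equal change. Among the genes drawn, Ccne1 lies alone at the lower left (−0.89 and −2.56). Ccnd2 and Cdk6 lie below the line at the right, and Ccnd1 and Ccng2 lie above it.

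For the 6 genes that passed in at least 1 cell type, the most similar genes were found among 11172 lead probe sets. The measure was the Euclidean distance over the 8 arrays of log2 signals after removal of each cell type's mean. Closest to Ccnd1 were Sgk1, a serum- and glucocorticoid-induced kinase (distance 0.08), and the Ets repressor Etv3 (0.14). Closest to Ccnd2 were the antiproliferative gene Btg1 (0.14) and annexin A2, Anxa2 (0.15). Cdk6 was nearest to Kctd10 (0.11) and the ESCRT component Chmp1b (0.13), and Ccng2 to the zinc finger factor Klf6 (0.13) and the kinase Map4k4 (0.20). Ccne2 was nearest to Ift74 (0.05), an intraflagellar transport protein, and to Qars (0.08), glutaminyl-tRNA synthetase. Ccne1 had no neighbour as close, with Nipa1 at 0.36 and Tspan33 at 0.37.

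The genes around the G1 cyclins were described by lists. Beside their counts stand the shares of all genes called higher and lower, 15.4% and 14.4% in ESC and 22.6% and 19.7% in HSC. CDK inhibitors, which restrain the cyclin-kinase complexes, had 3 higher and 0 lower of 7 tested in ESC and 3 higher and 0 lower of 5 in HSC. Their median log2 changes were 0.51 and 1.10, against −0.03 and 0.03 over all genes. Cdkn1a, which encodes p21, rose in both, by 0.89 ± 0.11 in ESC (adjusted p = 0.000588) and 1.11 ± 0.11 in HSC (adjusted p = 6.74e-05). It went from 912 ± 108 to 1698 ± 178 in ESC and from 225 ± 2.71 to 501 ± 39.2 in HSC (mean ± SD, n = 2). In HSC, the Cdk4 and Cdk6 inhibitor Cdkn2d rose by 1.12 ± 0.16 (adjusted p = 0.000568) and the p27 gene Cdkn1b by 1.10 ± 0.17 (adjusted p = 0.000832). The average of the Cdkn1b probe sets was at 0.47 (adjusted p = 0.159), so this call rests on the lead probe set. Also called in ESC was Cdkn1c (0.51 ± 0.12, adjusted p = 0.0169), which did not pass when any 1 of the ESC arrays was left out. In ESC, Cdkn2a rose by 1.15 ± 0.28 (adjusted p = 0.0167). It did not pass with the pseudocount at the 10th percentile (adjusted p = 0.0586) or without a pseudocount (0.114). Its adjusted p was 0.109, 0.0681 and 0.0775 without Zfx-flox replicate 1, Zfx-null replicate 1 and Zfx-null replicate 2.

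Of the retinoblastoma family, the substrates of these kinases, 0 of 3 passed in ESC and 1 fell in HSC. That gene was Rb1 (−0.75 ± 0.10, adjusted p = 0.000504), which went from 3043 ± 52.8 to 1803 ± 19.8 on its lead probe set, while the mean of its probe sets gave −0.23 (adjusted p = 0.266). The E2F and DP factors had 3 higher and 5 lower of 10 in ESC and 0 higher and 3 lower of 10 in HSC. Of all genes, 15.4% were called higher and 14.4% lower in ESC, and 22.6% and 19.7% in HSC. In HSC the E2F partner Tfdp1 fell by 0.64 ± 0.059 (adjusted p = 4.51e-05). In ESC the activator E2f1 fell by 0.76 ± 0.20 (adjusted p = 0.0242), with an adjusted p of 0.113, 0.0716 and 0.135 without Zfx-flox replicate 1, Zfx-flox replicate 2 and Zfx-null replicate 2.

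Of 21 tested E2F-responsive G1/S genes, many of which license or copy DNA, 12 fell and 0 rose in ESC. In HSC 12 fell and 1 rose. Over all genes, 14.4% were called lower and 15.4% higher in ESC, and 19.7% and 22.6% in HSC. The medians of the list were −0.33 and −0.34. These genes act downstream of the kinases described above. In ESC the uracil glycosylase Ung fell by 0.57 ± 0.067 (adjusted p = 0.000463), Uhrf1 by 0.51 ± 0.087 (adjusted p = 0.00304) and the licensing factor Cdt1 by 0.47 ± 0.057 (adjusted p = 0.000577). In HSC the origin recognition gene Orc1 fell by 1.08 ± 0.10 (adjusted p = 5.52e-05) and the loading factor Cdc6 by 0.95 ± 0.083 (adjusted p = 3.41e-05). The gene that rose was Tyms, thymidylate synthase (0.73 ± 0.25, adjusted p = 0.0431). Its change was 0.35 without Zfx-cko replicate 1 (adjusted p = 0.29), 0.82 without Zfx-flox replicate 1 (0.0894) and 0.64 without Zfx-flox replicate 2 (0.172), its adjusted p was 0.0568 to 0.0596 without single ESC arrays and 0.0808 in a separate fit of HSC. The cyclin A2 gene Ccna2 did not pass, at −0.19 in ESC and −0.17 in HSC (adjusted p = 0.221 and 0.249). With the mean of its probe sets Ccna2 was at −0.26 and −0.47 (adjusted p = 0.0226 and 0.000885).

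Enzymes that switch CDKs on or off had 1 higher and 5 lower of 9 in ESC and 1 higher and 2 lower in HSC. Of the ESC falls, those of Cdc25a, Cdc25c and Pkmyt1 did not pass with some single ESC arrays left out. With the mean of its probe sets Pkmyt1 was at −0.20 in ESC (adjusted p = 0.55). Cdk7, called lower in HSC, was at −0.18 there by the same mean (adjusted p = 0.24). The phosphatase gene Cdc25b rose by 0.69 ± 0.12 in HSC (adjusted p = 0.0017) and fell by 0.46 ± 0.12 in ESC (adjusted p = 0.022), a difference of 1.16 ± 0.17 (adjusted p = 0.00104). Its ESC call was lost with median centring (adjusted p = 0.0521) and without Zfx-flox replicate 2 (0.124), Zfx-null replicate 1 (0.0853) or Zfx-null replicate 2 (0.0651). In HSC Cdc37, the co-chaperone that loads Cdk4 onto Hsp90, fell by 0.49 ± 0.071 (adjusted p = 0.000657). Of 12 turnover factors of G1 cyclins and p27, 1 rose and 1 fell in ESC and 1 rose and 3 fell in HSC. The kinase gene Gsk3b, whose product marks cyclin D1 for degradation, rose by 0.69 ± 0.088 in ESC (adjusted p = 0.000755). The cullin gene Cul1 fell by 0.54 ± 0.071 in HSC (adjusted p = 0.000334). The S/G2/M cyclins had 0 higher and 3 lower of 4 in each cell type, among them Cdk1 in ESC (−0.62 ± 0.056, adjusted p = 0.000132) and Ccnb2 in ESC and HSC (−0.62 ± 0.088 and −0.53 ± 0.088). Of the other cyclins and CDKs 3 rose and 2 fell of 19 in ESC, and 3 rose and 0 fell of 18 in HSC. The counts of this last list were near or below the shares of all genes called higher and lower. Those shares were 15.4% and 14.4% in ESC and 22.6% and 19.7% in HSC. Cdk17 rose in both, by 0.79 ± 0.058 and 0.62 ± 0.059.

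Genes upstream of cyclin D had 5 higher and 0 lower of 16 in ESC and 6 higher and 1 lower of 14 in HSC, with medians of 0.32 and 0.24. The AP-1 subunit Jun went from 214 ± 61.1 to 609.9 ± 4.46 in ESC (1.48 ± 0.17, adjusted p = 0.000446) and on the HSC arrays from 85.5 and 104 to 587 and 582 (2.46 ± 0.17, adjusted p = 9.41e-06). Its partner Fosl2 rose by 2.20 ± 0.11 in ESC and 1.23 ± 0.11 in HSC. Myc did not pass, at 0.27 in ESC (adjusted p = 0.0501) and −0.09 in HSC (adjusted p = 0.475). Without ESC Zfx-flox replicate 1 the ESC change of Myc was 0.38 and passed (adjusted p = 0.0248). FoxO-responsive and antiproliferative genes, the company of Ccng2, had 6 higher and 4 lower of 16 in ESC and 9 higher and 2 lower of 15 in HSC, with medians of 0.28 and 0.62. In ESC, Bcl6 rose by 1.16 ± 0.22, Cited2 by 1.09 ± 0.068, Btg1 by 1.07 ± 0.066 and Klf6 by 0.94 ± 0.072. In HSC, Sesn3, a stress-induced inhibitor of mTORC1 signalling, went from 181 ± 3.42 to 606 ± 44.7 (1.67 ± 0.094, adjusted p = 3.6e-06). The list thus held more called rises than falls in each cell type, but in ESC only 6 against 4. In ESC, Klf2 went down from a mean of 548 to 285 and Txnip from 1057 to 710. In HSC, Ccng1 went down from a mean of 5405 to 3832 and Gadd45a from 634 to 423. Klf6 rose by 1.63 ± 0.072 in HSC, the PI3-kinase inhibitor Pik3ip1 by 1.50 ± 0.12 and Btg2 by 1.40 ± 0.12. The shares of called genes on these lists stand beside 15.4% and 14.4% (higher and lower) of all genes in ESC and 22.6% and 19.7% in HSC.

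**Figure D4:**
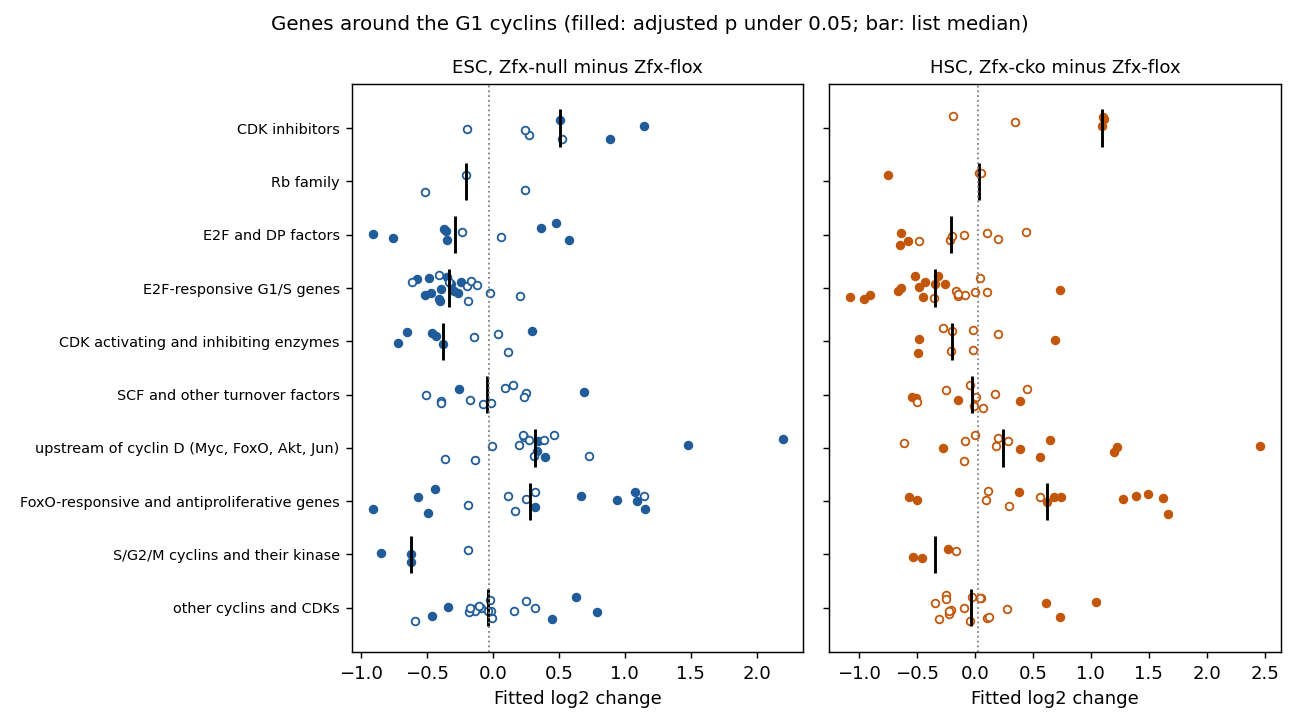
Fitted log2 change (x axis) of each tested gene of 10 lists (y axis) in ESC on the left and HSC on the right; filled points passed an adjusted p of 0.05, bars are list medians and the dotted line is the median of all genes. The E2F-responsive genes lie mostly to the left (medians −0.33 and −0.34) and the CDK inhibitors to the right (0.51 and 1.10).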

How the data were processed

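Total RNA of 8 samples was read on Affymetrix arrays. The authors deposited linear intensities, 1 per probe set, and the submitters' processing notes name GCOS 1.4. How probes were summarised is not stated in the sources used here. On each array the mean intensity was 250 once the top and bottom 2% were trimmed. The deposited scaling was kept. From these intensities, log2(value + 14.2) was computed, where 14.2 is the 25th percentile of all values.

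The 64 control probe sets were left out. A probe set was tested when its mean over the 4 arrays of a cell type reached the 40th percentile (40.5 in ESC, 26.7 in HSC), which left 27022 per cell type. The means of the 4 groups were fitted jointly, using limma 3.58.1 (R 4.3.3) with a trended eBayes and 4 residual degrees of freedom and with Benjamini-Hochberg adjustment over all probe sets tested and a threshold of 0.05. The joint fit was used because 4 arrays of 1 cell type leave few degrees of freedom. Median standard errors were 0.143 in ESC and 0.142 in HSC. Precision is limited by the small number of arrays and, for dim probe sets, by background. The fit was tested on simulated data.

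Names came from the platform annotation: 34945 probe sets had 1 symbol, 932 several and 9160 none, and 34741 of the first matched RefSeq (GRCm38.p6), with 0 symbols changed. No 2 arrays held identical values, and 0 value columns lacked a sample. Named besides the 9 genes are Zfx, their nearest neighbours, and per list and cell type at most 4 called genes of largest change and 2 uncalled ones of highest mean. Marker genes and some FoxO-responsive and antiproliferative genes with lower means were named in addition. The members and lists were chosen with earlier results of these data known. 19 alternatives were tried (pseudocount, scaling, filter, probe set choice, fit, replicate block, trend, and each array left out). Levels were not compared between probe sets, and ESC was not tested against HSC.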

Additional observations from a re-analysis of the deposited data

Results flagged for a closer look

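The change from Zfx-flox to Zfx-cko in HSC differed from that to Zfx-null in ESC for 5 of the 9 genes. This was by the test of the difference itself in limma. Of the 11181 genes tested in both cell types, 35.1% were called in this test. Cell type and amplification cannot be told apart in it. The HSC change minus the ESC change, on the log2 scale, was 0.949 for Ccnd1, −0.810 for Ccnd2, −1.67 for Ccne1, −0.636 for Cdk6 and 0.702 for Ccng2. On the lead probe sets, each of the 5 moved in the same direction in both cell types, so these are differences in size there. The second Ccng2 probe set, 1448364_at, which was dim in HSC, changed by 0.51 in ESC and −0.10 in HSC and passed in neither. With the mean of both probe sets the Ccng2 difference was 0.05 (adjusted p = 0.821 in limma). The ESC call of Ccnd1 was lost with median centring (adjusted p = 0.0522). Cdc25b, which encodes a phosphatase that activates CDKs, was lower in Zfx-null ESC and higher in Zfx-cko HSC, and its difference was 1.16. With groups of 2 arrays, single arrays far from the others could not be looked for.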

How the results depend on the processing

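Under the alternatives, 469 member results kept direction and call, 18 lost a call, 3 gained one and 14 changed sign. Ccne1 in every comparison, Ccnd1 and Ccng2 in HSC, and Ccnd2, Cdk6 and Ccng2 in ESC kept their calls under each alternative run, though Ccng2 in HSC was 0.740 with the mean of its probe sets against 1.58. The sign changes were all among uncalled values. Cdk4 in HSC was 0.0229 with quantile normalization and −0.157 to 0.0781 with single arrays left out. Its HSC minus ESC difference was −0.0405 with median centring, −0.162 with the mean of all probe sets and −0.0386 to 0.196 with arrays left out. Ccnd3 in ESC was 0.160 and its difference −0.154 with the mean of probe sets. With arrays left out, the ESC changes ran from −0.223 to 0.0988 for Ccnd3, −0.222 to 0.0789 for Ccne2 and −0.200 to 0.0651 for Cdk2. Among the 9 genes, 2 were higher in HSC with median centring, 1 had a higher difference with the mean of probe sets, 1 was lower in HSC without the trend, and 1 to 2 were lower in HSC with arrays left out. Of all genes, 1233 had a higher difference with median centring, and 1121 to 1713 were lower in ESC with arrays left out (1121 without ESC Zfx-flox replicate 1, 1191 without Zfx-flox replicate 2, against 1827). The cause was not tested. Calls that depended on the trend were Ccnd1 in ESC (adjusted p = 0.0737 without it), Ccnd2 in HSC (0.106) and Ccne2 in HSC (0.0588). Median centring took Ccnd1 in ESC to 0.0522. Cdk4 in HSC passed with the mean of its probe sets (−0.268, adjusted p = 0.00768).

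Equal replicate numbers are not stated to pair the arrays, and the deviations of equal numbers correlated at 0.317 in ESC and 0.0676 in HSC. With the replicate block, 2276 genes were higher and 2273 lower in ESC, 3206 and 2776 in HSC, and 2362 and 2354 in the difference. The 9 genes kept their calls, except that the Ccne2 difference passed (−0.361, adjusted p = 0.0248). It also passed without ESC Zfx-flox replicate 1 (−0.512, adjusted p = 0.0464). Dim probe sets limit Cdk2 (1447617_at) and, in ESC, Ccnd2 (1416124_at) and Ccnd3 (1438805_at).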
